A study of Mus musculus with 14 samples.

Results

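Chromatin accessibility was followed in Treg cells at 4 gene loci, Arhgap17, Spata13, Fam83f and Ccl1. A window of the deposited count table belonged to a locus if its centre lay inside the gene, or if the gene had the nearest protein-coding start site and that site was within 100000 bases. This gave 128 of 240778 windows, with 20 at Arhgap17, 66 at Spata13, 28 at Fam83f and 14 at Ccl1. Each window spans 201 bases from its first to its last named position, on the mouse build GRCm38 (mm10). The loci were picked because at least 1 window in each differed between the genotypes when both days were fitted together, so these genotype differences are described here and support nothing.

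Bulk ATAC-seq, in which the Tn5 transposase cuts and tags open chromatin, was performed on Treg cells from pooled spleen and lymph nodes of 14 mice. All mice carried Foxp3-AID, in which the endogenous Foxp3 protein bears an auxin-inducible degron and the same allele drives a ZsGreen reporter and Cre recombinase. They had either an unmodified ROSA26 locus (Foxp3-AID ROSA26-WT, here R26WT) or the plant E3 ligase subunit TIR1(F74G) with mCherry at that locus (Foxp3-AID ROSA26-TIR1(F74G), here R26TIR1(F74G)). Both genotypes received the ligand 5-ph-IAA, for 3 days in 4 R26WT and 4 R26TIR1(F74G) mice and for 7 days in 3 and 3 mice, and only cells with TIR1(F74G) can degrade Foxp3 in response. TIR1(F74G) sits behind a STOP cassette that Foxp3-driven Cre removes, so it marks cells that had expressed Foxp3. Per the methods of the study, cells were sorted as ZsGreen+ from R26WT and as ZsGreen+mCherry+ from R26TIR1(F74G) mice, so the gate and the genotype cannot be told apart. The labels give neither the age and sex of the mice nor the activation state of the cells. For chromatin accessibility, the paper describes resting and activated cells of heterozygous Foxp3-AID/WT mice on day 7. Whether these libraries match that sort and zygosity was not settled here.

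The libraries held 5653289 to 20184487 counts. The shallowest were R26TIR1(F74G) day 3 replicate 1 and R26WT day 7 replicate 3, with 6348754 counts in the latter, and no libraries were identical. Summed accessibility at the start sites of 4 Treg marker genes was 52.9 to 67.5 CPM (counts scaled to a common TMM-adjusted library size) in R26WT and 50.5 to 65.1 CPM in R26TIR1(F74G). Foxp3 and Tnfrsf18 had no window at their start sites. B cell genes summed to 4.20 to 8.40 CPM in R26WT and 4.28 to 7.19 CPM in R26TIR1(F74G) over 3 of 8 genes, and Cd79a, Cd22 and Pax5 were among the 5 without a window. Myeloid genes summed to 22.5 to 28.6 and 21.8 to 27.1 CPM over 5 of 8 genes, with no start-site window at Adgre1, Fcgr1 and Lyz2. Accessibility shows neither RNA nor protein, so Foxp3 loss itself was not checked here.

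Arhgap17 and Spata13 encode opposing regulators of Cdc42 and Rac, small GTPases that organise the actin cytoskeleton during migration and cell contact. Arhgap17 (RICH1) is a GTPase-activating protein that turns them off, whereas Spata13 (Asef2) is a guanine nucleotide exchange factor that turns them on. Fam83f belongs to a family whose shared domain binds casein kinase 1 isoforms. Ccl1 is a secreted chemokine and the ligand of CCR8, a receptor found on activated Treg cells.

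Promoters are shown first because the genotype differences of these loci lay away from them. RefSeq promoter entries, 250 bases before a start site, were matched for Arhgap17, Ccl1 and Spata13 (GRCm38.p6). The stretches are written 5′ to 3′ on the strand of the gene, with CG dinucleotides in capitals.
Arhgap17, chr7:123369949-123370165, minus strand: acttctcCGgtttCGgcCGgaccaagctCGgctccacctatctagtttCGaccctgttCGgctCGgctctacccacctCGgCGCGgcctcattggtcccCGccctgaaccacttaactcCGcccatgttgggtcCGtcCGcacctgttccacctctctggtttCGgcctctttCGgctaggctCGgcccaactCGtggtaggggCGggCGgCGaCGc
Spata13, chr14:60634455-60634704, plus strand: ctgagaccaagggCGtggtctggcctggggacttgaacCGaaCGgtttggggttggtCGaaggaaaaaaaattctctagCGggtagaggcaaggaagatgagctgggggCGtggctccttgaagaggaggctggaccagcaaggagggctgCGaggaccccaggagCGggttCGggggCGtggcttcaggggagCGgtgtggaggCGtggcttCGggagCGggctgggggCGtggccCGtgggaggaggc
Ccl1, chr11:82179813-82180062, minus strand: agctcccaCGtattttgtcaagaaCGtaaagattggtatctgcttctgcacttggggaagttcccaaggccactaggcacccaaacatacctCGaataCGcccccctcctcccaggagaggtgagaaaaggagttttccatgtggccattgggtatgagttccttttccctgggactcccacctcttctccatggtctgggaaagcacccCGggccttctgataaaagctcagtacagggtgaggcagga

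The Arhgap17 and Spata13 entries were CG-rich and open, and the Ccl1 entry was neither. Arhgap17 had 65.6% GC and 27 CG dinucleotides over its 250 bases, of which the 217 bases outside the outermost transcript are printed with 22. Spata13 had 65.6% GC and 16 CG, and Ccl1 52.8% GC and 5 CG, beside medians of 52.4% and 6 over 32851 promoter entries. A window overlapped the Arhgap17 entry and 2 windows overlapped the Spata13 entry, but none overlapped that of Ccl1. A further Spata13 entry, 250 bases before an inner start at position 60732904, had 48.8% GC, 5 CG and 3 overlapping windows.

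Known binding letters were searched on both strands of the whole entries. The Ets letters GGAAGT occurred at positions -195 to -190 from the Ccl1 start. At Arhgap17 they occurred at -32 to -27 from the start of that entry, position 123369915, in bases that are not printed. Of all entries, 19.7% held these letters. The forkhead letters TGTTTAC and TGTTTGC (3.17% and 4.30% of all entries), the Runx letters TGTGGT (14.1%) and the AP-1 letters TGAGTCA (4.46%, read on either strand) were in none of the 4 entries, and GGAAGT was in neither Spata13 entry. A match, or its lack, only describes the letters in these stretches.

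Over both days, 5 of the 128 windows passed an adjusted p of 0.05 in edgeR (quasi-likelihood test, Benjamini-Hochberg adjustment over all windows), against 0.0112% of all windows. Of these, 2 were higher in R26TIR1(F74G) and 3 lower, against 0.0054% and 0.00581% of all windows. They lay in 4 regions, 1 per locus, since a pair of Ccl1 windows overlapped by 117 bases. The Arhgap17 and Spata13 windows were the higher ones, and those of Fam83f and Ccl1 the lower. The values that chose them ran from an adjusted p of 0.00129 to 0.0462, and the next smallest at these loci was 0.492. Of all 128 windows, 4 had no overlap between the 7 R26WT and 7 R26TIR1(F74G) mice, against 0.116% of all windows.

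**Figure D1:**
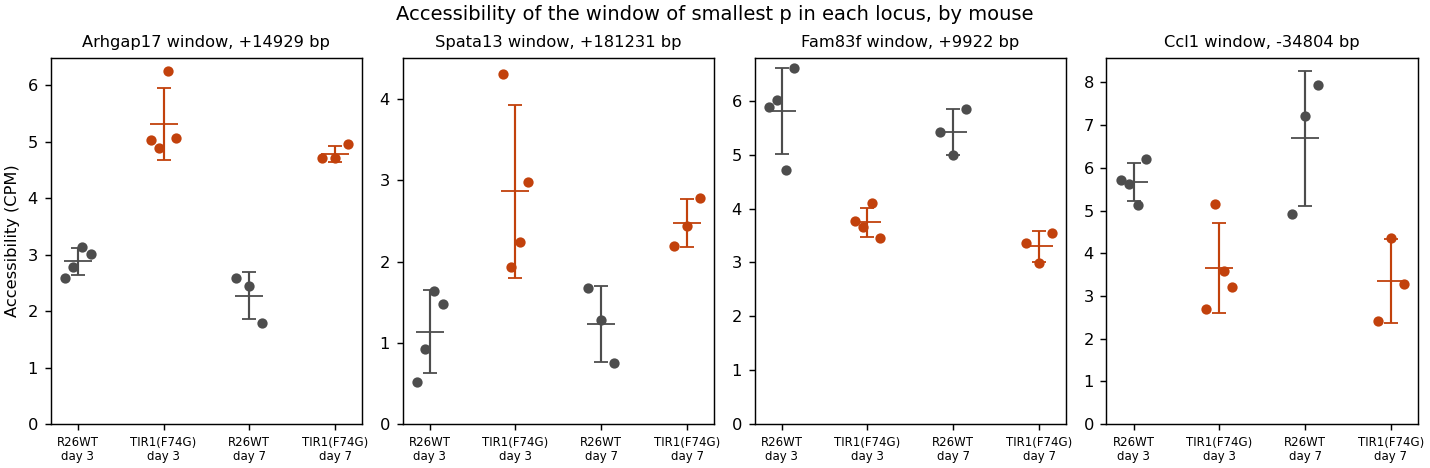
Accessibility (CPM, y axis from 0) in each mouse, as points, for the window of smallest p at each locus, with the mean and SD of each genotype and day (x axis). R26TIR1(F74G) mice sit above all R26WT mice at Arhgap17 (lowest 4.71 against highest 3.14 CPM) and Spata13, below them at Fam83f, and overlap them at Ccl1.

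At Arhgap17, the window at chr7:123354919-123355120 was nearly 2 times as accessible in R26TIR1(F74G) as in R26WT mice. It lies 14929 bases into the gene, which spans chr7:123279149-123369948 on the minus strand. On day 3 it held 2.60, 2.78, 3.14 and 3.01 CPM in R26WT and 5.04, 4.88, 6.26 and 5.07 CPM in R26TIR1(F74G). On day 7 it held 2.58, 2.44 and 1.80 CPM in R26WT and 4.71, 4.71 and 4.96 CPM in R26TIR1(F74G). Every R26TIR1(F74G) mouse was above every R26WT mouse, with means of 5.09 ± 0.537 and 2.62 ± 0.439 CPM (SD, n = 7 each). Fitted over both days, the log2 fold change was 0.94 (SE 0.14), with 0.88 on day 3 (SE 0.19) and 1.02 on day 7 (SE 0.21). The difference rested on 12 to 98 reads per library.

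Within the R26WT mice the same window was lower on day 7 than on day 3 without overlap, by 0.29 on the log2 scale (SE 0.23), which did not pass (adjusted p = 0.981, edgeR). Across all windows, 6.40% had no such overlap. In R26TIR1(F74G) mice the day difference was -0.15 (SE 0.18), and the genotype effect on day 7 minus that on day 3 was 0.14 (SE 0.28, adjusted p = 0.964, edgeR).

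The promoter window of Arhgap17 had overlapping genotypes. It lies at chr7:123369853-123370054, 5 bases from the outer start site, overlaps the promoter entry printed above, and was the most accessible of the 128 windows. On day 3 it held 40.6, 40.1, 51.3 and 58.0 CPM in R26WT and 51.4, 45.9, 36.9 and 39.8 CPM in R26TIR1(F74G). On day 7 it held 44.8, 49.7 and 41.4 CPM in R26WT and 42.6, 39.8 and 43.3 CPM in R26TIR1(F74G). The groups overlapped on both days, at 46.5 ± 6.70 and 42.8 ± 4.78 CPM (SD, n = 7 each), with a log2 fold change of -0.13 (SE 0.09, adjusted p = 0.843, edgeR).

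Other Arhgap17 windows differed less. The nearest windows on either side of the chosen one, chr7:123354566-123354767 and chr7:123355397-123355598, had log2 fold changes of 0.41 (SE 0.24) and 0.43 (SE 0.20) over both days. A window 651 bases upstream of the start had 0.14 (SE 0.14), and 3 windows from 13685 to 13937 bases into the gene ran from -0.32 to -0.18. The 19 windows other than the chosen one had a median of 0.14 (13 positive, 6 negative), beside 0.0034 over all windows. Their summed accessibility, over 13 windows that do not overlap, was 89.1 ± 9.69 CPM in R26WT and 87.6 ± 6.38 CPM in R26TIR1(F74G).

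At Spata13, the window of smallest p was weak in R26WT, below the locus median of 2.46 CPM, and more than 2 times as accessible in R26TIR1(F74G). It lies at chr14:60666299-60666500, 181231 bases from the outer start of a gene that spans chr14:60485168-60764556 on the plus strand. It is 31694 bases downstream of the inner Spata13 start whose promoter is printed above. By the outer ends of genes alone, the nearest start is that of C1qtnf9, 101735 bases away, which encodes a secreted protein of the C1q and TNF related family.

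On day 3 the window held 0.519, 0.926, 1.64 and 1.48 CPM in R26WT and 4.32, 1.93, 2.24 and 2.98 CPM in R26TIR1(F74G). On day 7 it held 1.68, 1.28 and 0.750 CPM in R26WT and 2.19, 2.44 and 2.78 CPM in R26TIR1(F74G). The genotypes did not overlap, but the highest value, 4.32 CPM, came from the shallowest library. Means were 1.18 ± 0.455 and 2.70 ± 0.798 CPM (SD, n = 7 each), and the log2 fold change was 1.05 over both days (SE 0.21), 1.18 on day 3 (SE 0.29) and 0.90 on day 7 (SE 0.29). Its change between days was 0.17 in R26WT (SE 0.36) and -0.09 in R26TIR1(F74G) (SE 0.25), and the interaction was -0.28 (SE 0.43, adjusted p = 0.951, edgeR).

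At the open start site of Spata13 the genotypes overlapped. The window at chr14:60634569-60634770, 36 bases from the start with the CG-rich promoter, had a lowest, median and highest value of 13.5, 16.2 and 20.4 CPM in R26WT and 16.01, 16.5 and 21.0 CPM in R26TIR1(F74G). Over both days the log2 fold change was 0.06 (SE 0.10, adjusted p = 0.951, edgeR). The other inner start, at position 60732904, was weaker. Its nearest window had 2.94 ± 0.664 and 3.11 ± 0.560 CPM (SD, n = 7 each), with 0.09 (SE 0.16). The window nearest to the outer start, still 28559 bases inside the gene, had 2.14 ± 0.659 and 2.16 ± 0.784 CPM and a log2 fold change of -0.02 (SE 0.20).

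The most accessible Spata13 window had the next smallest p of the locus and the opposite sign. It lies at chr14:60736806-60737007 and had 22.5, 25.2 and 28.1 CPM as lowest, median and highest in R26WT and 17.2, 20.4 and 25.2 CPM in R26TIR1(F74G). The groups overlapped, with R26TIR1(F74G) day 3 replicate 1 at 25.2 CPM and day 7 replicate 2 level with the lowest R26WT mouse. The log2 fold change was -0.28 (SE 0.09, unadjusted p = 0.00281, adjusted p = 0.492, edgeR). The nearest windows on either side of the chosen one, chr14:60634867-60635068 and chr14:60688852-60689053, had 0.01 (SE 0.12) and 0.13 (SE 0.20). Among windows of higher counts, chr14:60712282-60712483 and chr14:60738916-60739117 had 0.23 (SE 0.15) and -0.17 (SE 0.14). The 65 windows other than the chosen one had a median of -0.03 (27 positive, 38 negative), from -0.49 to 0.64.

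At Fam83f, the window at chr15:80681669-80681870 was less accessible in R26TIR1(F74G) mice by 0.66 on the log2 scale. It lies 9922 bases into the gene, which spans chr15:80671847-80700425 on the plus strand. On day 3 it held 5.89, 6.02, 4.71 and 6.61 CPM in R26WT and 3.78, 3.65, 4.10 and 3.46 CPM in R26TIR1(F74G). On day 7 it held 5.43, 5.00 and 5.85 CPM in R26WT and 3.37, 2.98 and 3.54 CPM in R26TIR1(F74G). Every R26TIR1(F74G) mouse was below every R26WT mouse, with means of 3.55 ± 0.348 and 5.64 ± 0.646 CPM (SD, n = 7 each). The log2 fold change was -0.66 over both days (SE 0.13), -0.64 on day 3 (SE 0.18) and -0.69 on day 7 (SE 0.19). The interaction was -0.06 (SE 0.26, adjusted p = 0.985, edgeR).

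The neighbouring window of Fam83f, chr15:80681406-80681607, ended 62 bases before it and was as accessible in R26WT. It had 5.86 ± 0.956 CPM in R26WT and 4.95 ± 0.789 CPM in R26TIR1(F74G) (SD, n = 7 each), and a log2 fold change of -0.25 over both days (SE 0.13), -0.40 on day 3 and -0.08 on day 7. The most accessible window, chr15:80697606-80697807, lies 25859 bases into the gene, where the start of Tnrc6b is nearest, a gene that encodes a partner of Argonaute in microRNA silencing. It had 8.70, 11.3 and 12.6 CPM as lowest, median and highest in R26WT and 7.24, 8.94 and 12.9 CPM in R26TIR1(F74G), and the groups overlapped. Its log2 fold change was -0.29 (SE 0.11, adjusted p = 0.637, edgeR). On the same side of the chosen window, chr15:80694552-80694753 had -0.13 (SE 0.19).

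The start site of Fam83f was barely open. The nearest window, 92 bases before it, had 0.939 CPM in R26WT and 1.07 CPM in R26TIR1(F74G), below the median of 1.80 CPM over all windows. Of the 28 windows, 9 lie inside Grap2, which encodes the adaptor GADS of T cell receptor signalling, and are in the locus only because the Fam83f start is the nearest. The 27 windows other than the chosen one had a median of -0.11 over both days (9 positive, 18 negative), and summed to 40.1 ± 4.74 CPM in R26WT and 35.4 ± 2.84 CPM in R26TIR1(F74G) where they do not overlap.

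At Ccl1, both windows past the threshold lay upstream of the gene, outside any protein-coding gene. The gene itself is short, chr11:82176666-82179812 on the minus strand. The window of smaller p, chr11:82214516-82214717, is 34804 bases upstream of its start, and its partner, chr11:82214431-82214632, is 34719 bases upstream. The pair counts many of the same reads and is 1 region, not a repeat of the result.

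The window 34804 bases upstream held 5.71, 5.62, 5.12 and 6.20 CPM in R26WT and 2.70, 5.15, 3.58 and 3.22 CPM in R26TIR1(F74G) on day 3. On day 7 it held 4.91, 7.21 and 7.95 CPM in R26WT and 2.41, 4.35 and 3.29 CPM in R26TIR1(F74G). The groups overlapped on day 3, where R26TIR1(F74G) replicate 2 reached 5.15 CPM, and did not on day 7. Means were 6.10 ± 1.11 and 3.53 ± 0.95 CPM (SD, n = 7 each). The log2 fold change was -0.74 over both days (SE 0.14), -0.56 on day 3 (SE 0.19) and -0.97 on day 7 (SE 0.20).

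Its partner held 5.63, 6.02, 5.46 and 6.31 CPM in R26WT and 3.96, 5.20, 4.17 and 3.62 CPM in R26TIR1(F74G) on day 3. On day 7 it held 5.30, 8.49 and 8.85 CPM in R26WT and 2.14, 4.29 and 4.05 CPM in R26TIR1(F74G). Here the genotypes did not overlap on either day, or over both. The log2 fold change was -0.73 over both days (SE 0.14), -0.44 on day 3 (SE 0.18) and -1.08 on day 7 (SE 0.21). The difference between the days did not pass, with an interaction of -0.65 (SE 0.28, unadjusted p = 0.0241, adjusted p = 0.765, edgeR).

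A weak window nearer to Ccl1 had the same sign. It lies at chr11:82214019-82214220, 34307 bases upstream of the start, and had 0.342, 1.12 and 1.73 CPM as lowest, median and highest in R26WT and 0.360, 0.656 and 1.04 CPM in R26TIR1(F74G). The groups overlapped, and the log2 fold change was -0.67 (SE 0.31, adjusted p = 0.708, edgeR). On the far side, chr11:82215001-82215202 had -0.06 (SE 0.33).

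The most accessible Ccl1 window lay close to the gene and had overlapping genotypes. At chr11:82183334-82183535, 3622 bases upstream of the start, it had 4.05, 8.74 and 10.9 CPM as lowest, median and highest in R26WT and 7.11, 7.69 and 12.05 CPM in R26TIR1(F74G). Over both days the log2 fold change was -0.11 (SE 0.12, adjusted p = 0.918, edgeR). The window nearest to the start, 1487 bases into the gene, held 1.48 ± 0.546 CPM in R26WT and 1.04 ± 0.414 CPM in R26TIR1(F74G) (SD, n = 7 each), and a window 1880 bases into it had a log2 fold change of -0.23 (SE 0.14). The 13 windows other than the chosen one had a median log2 fold change of -0.23 (3 positive, 10 negative).

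**Figure D2:**
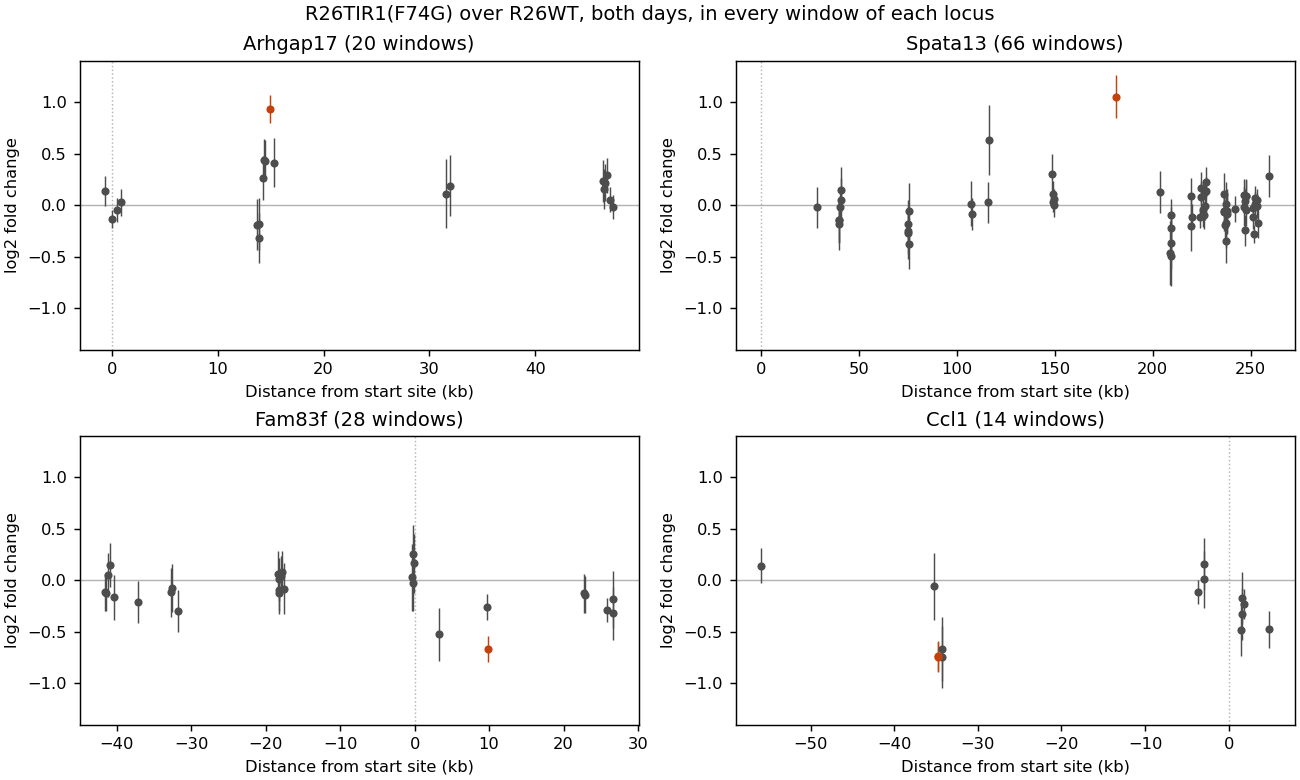
Log2 fold change of R26TIR1(F74G) over R26WT over both days (y axis, with SE bars) for every window, by distance from the outer start site of the gene (x axis, kb). The 5 windows past an adjusted p of 0.05, in orange, lie away from the start sites, and the windows at the starts of Arhgap17 and Fam83f sit between -0.13 and 0.26.

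**Figure D3:**
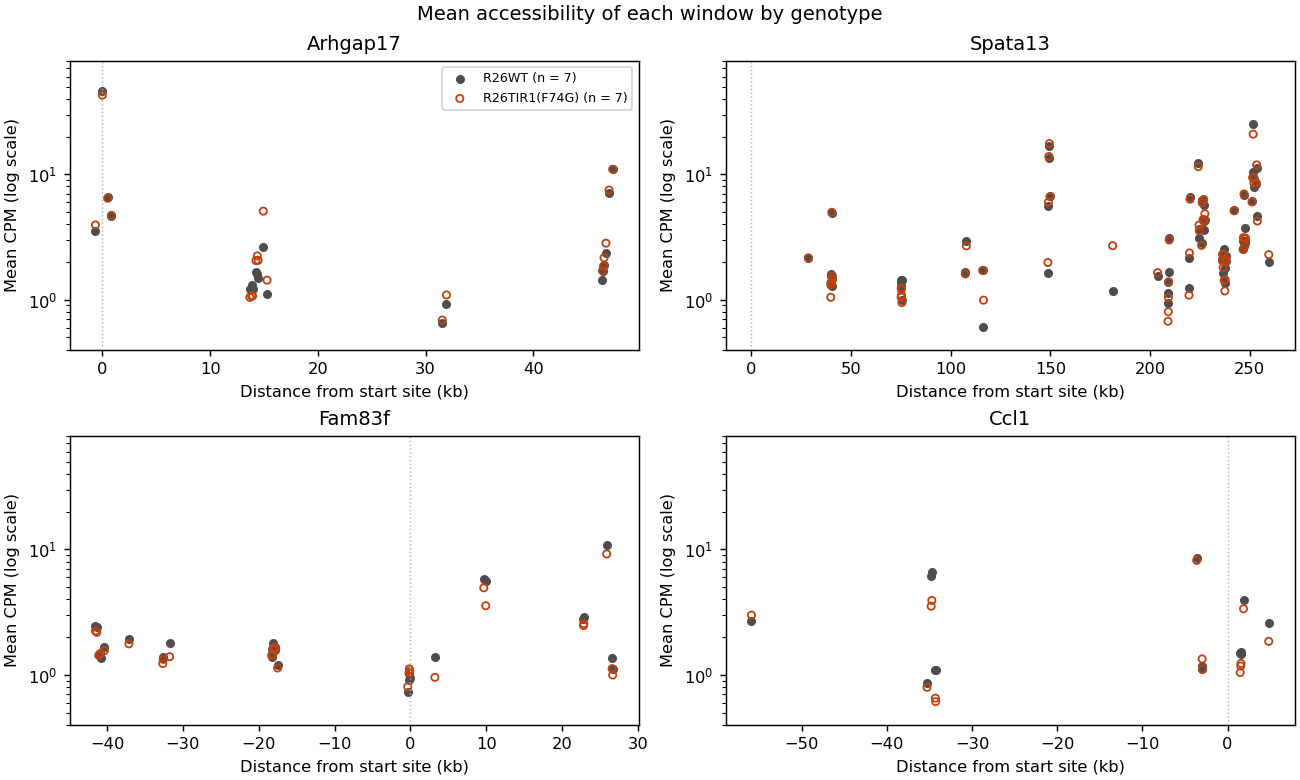
Mean CPM (y axis, log scale) of every window in R26WT (filled) and R26TIR1(F74G) (open), n = 7 mice each, by distance from the outer start site (x axis, kb). The start of Arhgap17 is the most open place of the 4 loci, at 46.5 and 42.8 CPM, whereas the windows nearest to the starts of Fam83f and Ccl1 hold 0.939 and 1.48 CPM in R26WT.

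The SD of log2(CPM + 0.5) within groups was 0.144 at Arhgap17, 0.134 at Fam83f, 0.407 at Spata13 and 0.30 at Ccl1. Counting alone gives about 0.225, 0.194, 0.345 and 0.198 in the same order, on log2 counts with nothing added. Adding 0.5 lowers the measured SD, so the scales differ and the gap is not exact. At Arhgap17 and Fam83f the measured SD was the lower value. Choosing windows by the smallest p favours a small spread, so these values are a description of the choice and do not show that the windows are steady.

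Outside the chosen windows, 1 of 124 windows passed the threshold for genotype over both days, the overlapping Ccl1 window. At an unadjusted p under 0.05 there were 10 of 124, or 8.06%, beside 6.73% of all windows. The median log2 fold change of the 124 was -0.04.

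On single days no window of the 4 loci passed. On day 7, edgeR called 0 of 127 tested windows at an adjusted p of 0.05 (smallest 0.0686, the Ccl1 window 34719 bases upstream), against 0.00463% of all windows, and DESeq2 called 0. There were 9 at an unadjusted p under 0.05 by edgeR (5.95% of all windows) and 6 by DESeq2 (6367 of all 237811 windows). These counts include the chosen windows, which were picked on the same mice. Without them, edgeR had 5 of 123 (4.07%). On day 3, edgeR called 0 of 127 (smallest 0.229) and 0% of all windows, with 11 at an unadjusted p under 0.05 (7.55% of all windows). Without the chosen windows, 7 of 123 were left (5.69%). DESeq2 called 0 of the 19 windows it gave an adjusted p. It had 9 of the 127 at an unadjusted p under 0.05 (11762 of all 235515 windows). Groups did not overlap in 20 windows on day 7, where 11.8% of all windows did so with 3 mice against 3, and in 4 windows on day 3, where 4.10% did so. Without the chosen windows these counts were 16 and 1.

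Day 3 and day 7 came from separate mice, but the mice of both days entered the choice of the loci. Without the chosen windows and the Ccl1 window that overlaps one, 71 of 121 windows tested on both days had the same sign of the genotype difference (58.7%, beside 50.0% of 232548 windows). The Pearson correlation over these windows was 0.31, beside -0.017 over all windows. By locus, leaving out only the chosen window, it was 0.30 at Arhgap17, 0.15 at Spata13, 0.26 at Fam83f and 0.39 at Ccl1. Many of these windows overlap and share reads, so they are not independent. With the loci chosen on both days, the agreement between the days is a description and supports nothing.

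**Figure D4:**
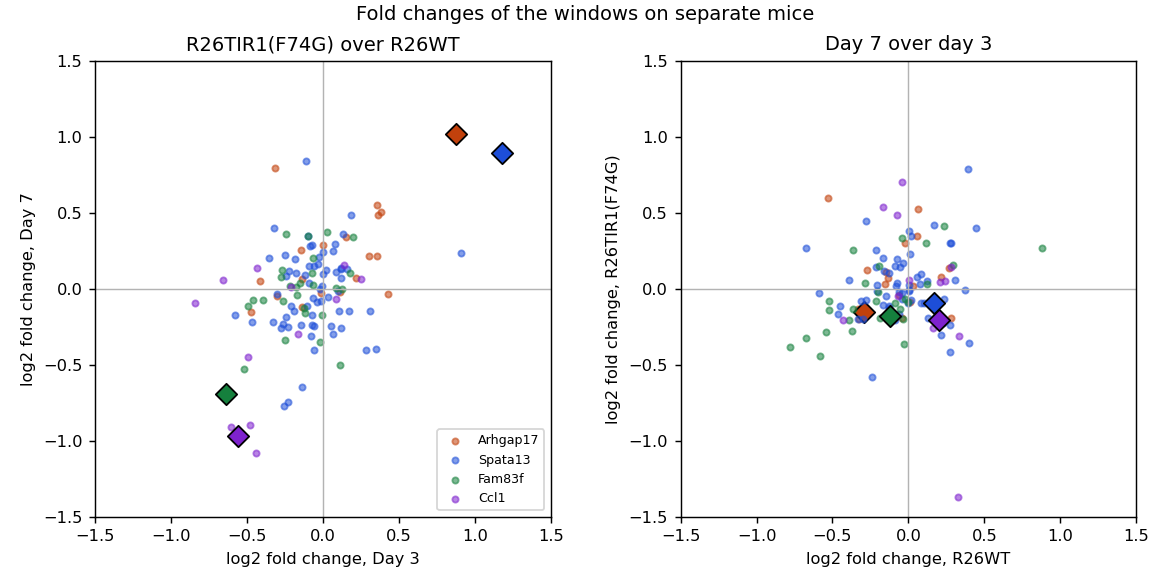
Left, log2 fold change of R26TIR1(F74G) over R26WT on day 3 (x axis) and day 7 (y axis). Right, log2 fold change of day 7 over day 3 in R26WT (x axis) and R26TIR1(F74G) (y axis). Points are windows coloured by locus and diamonds the chosen windows, which lie far from 0 on the left, by construction, and between -0.29 and 0.20 on the right.

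The comparisons of day 7 with day 3 did not enter the choice of the loci. Within R26WT, 0 of 126 tested windows passed (smallest adjusted p = 0.626, edgeR), against 0.003% of all windows, with 5 at an unadjusted p under 0.05, or 3.97% beside 5.25% of all windows. Within R26TIR1(F74G), 0 of 126 passed (smallest adjusted p = 0.456, edgeR), against 0% of all windows, with 2 at an unadjusted p under 0.05, or 1.59% beside 6.96%. For the interaction of day and genotype, 0 of 128 passed (smallest adjusted p = 0.728, edgeR), against 0% of all windows, with 4 at an unadjusted p under 0.05, or 3.13% beside 6.32%. DESeq2 also called 0 in each, with 4, 1 and 4 windows at an unadjusted p under 0.05. Over all windows, 6181 of 232991, 9991 of 239163 and 11425 of 240778 had such a p by DESeq2.

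The largest change between days by p was in Spata13, in the window chr14:60736545-60736746 next to the most accessible one. In R26WT it held 16.4, 11.2, 9.83 and 11.3 CPM on day 3 and 8.92, 7.50 and 7.65 CPM on day 7. In R26TIR1(F74G) it held 9.89, 9.34, 9.02 and 9.81 CPM on day 3 and 9.57, 8.64 and 9.66 CPM on day 7. The R26WT days did not overlap and the R26TIR1(F74G) days did, with log2 differences of -0.59 (SE 0.16) and -0.03 (SE 0.14) and an interaction of 0.56 (SE 0.22). None of these passed, with adjusted p = 0.626, 0.988 and 0.739 (edgeR).

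At Ccl1, the window 3622 bases upstream was lower on day 7 in R26WT without overlap. It held 10.9, 10.1, 8.74 and 9.56 CPM on day 3 and 7.88, 8.61 and 4.05 CPM on day 7, a log2 difference of -0.43 (SE 0.17, adjusted p = 0.907, edgeR). The lowest of these came from the shallow R26WT day 7 library. The smallest interaction p was in a Ccl1 window 35289 bases upstream, which had a mean of only 11.4 reads and a value of -1.69 (SE 0.63, adjusted p = 0.728, edgeR). The day difference had the same sign in both genotypes in 10 of 18 other windows at Arhgap17, 33 of 63 at Spata13, 23 of 27 at Fam83f and 6 of 12 at Ccl1, beside 48.7% of all windows.

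The windows whose pattern over the 14 libraries was most like each chosen window were taken by Pearson correlation of log2(CPM + 0.5). Only windows on other chromosomes that averaged 50 reads or more were compared. For Arhgap17 they lay nearest to the starts of Dennd4c (r = 0.904), Rnf144a (0.896) and Hs1bp3 (0.891). For Spata13 the nearest starts were those of Pou2af1 (0.936), Gm9805 (0.904) and Lancl2 (0.903). For Fam83f they were those of Zfp870 (0.914), Prkch (0.894) and Cebpb (0.878), and for Ccl1 those of Ubash3b (0.883) and Macroh2a1 (0.879). The distance to the named start ran from 11 bases (Pou2af1) to 357458 bases (Rnf144a). These windows are the extremes of at least 62258 windows compared in 14 libraries and are a description.

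Genes of related functions were read against the whole table for genotype over both days. In it, 0.0112% of windows passed and 6.73% had an unadjusted p under 0.05. Among 671 windows of 16 GTPase-activating proteins, 0 passed (edgeR), 54 had an unadjusted p under 0.05 (8.05%), and the median log2 fold change was 0.025. Among 787 windows of 15 exchange factors, 2 passed, both higher in R26TIR1(F74G), 56 had an unadjusted p under 0.05 (7.12%), and the median was 0.0035. The lists were put together with earlier results of these data known.

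Both exchange factor windows lie inside Arhgef6, which encodes alpha-PIX, an activator of Cdc42 and Rac. Their nearest start, 41368 and 41679 bases away, is that of Cd40lg, the T cell ligand of CD40. The first held 2.04, 2.42 and 3.23 CPM as lowest, median and highest in R26WT and 4.13, 4.35 and 6.41 CPM in R26TIR1(F74G), without overlap. Its log2 fold change was 0.88 (SE 0.15, adjusted p = 0.0114, edgeR). The second held 2.70, 3.98 and 4.30 CPM in R26WT and 4.67, 6.12 and 7.51 CPM in R26TIR1(F74G), also without overlap, with 0.66 (SE 0.13, adjusted p = 0.0462, edgeR).

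Relatives of Fam83f and Ccl1 gave no calls. The FAM83 family had 84 windows in 5 genes, with 0 past the threshold (edgeR), 5 at an unadjusted p under 0.05 (5.95%, beside 6.73% of all windows) and a median of -0.09. The C-C chemokines with Ccr8, the receptor of Ccl1, had 56 windows in 8 genes, with 0 past the threshold, 4 at an unadjusted p under 0.05 (7.14%) and a median of -0.03. The marker lists of Treg, T, CD8 T, B and myeloid cells also had 0 windows past the threshold for genotype over both days. Of 92 myeloid windows, 15 had an unadjusted p under 0.05 (16.3%, beside 6.73% of all windows), with a median of -0.13, the sign of the Fam83f and Ccl1 windows. Of 188 T cell windows, 17 did so (9.04%), with a median of the same sign, -0.06. The Treg, CD8 T and B cell lists had 7.01%, 0% and 3.94%, with medians of -0.01, 0.05 and 0.03. The part of any of these cell types in the results of the 4 loci was not tested.

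Mouse names in the labels start with AC or E, and the 4 E mice are 1 R26WT and 2 R26TIR1(F74G) mice of day 3 and 1 R26TIR1(F74G) mouse of day 7. What the prefix stands for is not stated. With that prefix added to the fit, the log2 fold changes were 0.90 at Arhgap17, 1.00 at Spata13, -0.71 at Fam83f and -0.72 at Ccl1, with edgeR adjusted p of 0.00702, 0.159, 0.0439 and 0.110. Over the 6 R26WT and 4 R26TIR1(F74G) mice with AC names, differences of mean log2(CPM + 0.5) were 0.82, 0.98, -0.60 and -0.70.

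The Arhgap17 window passed under all 21 alternatives that gave it an adjusted p, including each of the 14 fits that left out 1 mouse. Those of Spata13, Fam83f and Ccl1 passed in 3, 2 and 4 of those 14 fits, with log2 fold changes from 0.94 to 1.17, from -0.71 to -0.63 and from -0.89 to -0.64. DESeq2 gave an adjusted p to only 14 of the 128 windows over both days and to none of the 4 chosen ones. Its log2 fold changes for Arhgap17, Spata13, Fam83f and Ccl1 were 0.94, 1.08, -0.66 and -0.75. Their unadjusted p by DESeq2 were 8.52e-11, 3.02e-06, 6.88e-07 and 3.91e-06, on the same mice that chose the windows.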

How the data were processed

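Per the labels, ATAC-seq libraries of sorted Treg cells from 14 mice were processed with Bowtie2, MACS2, featureCounts and DESeq2 on mm10. The authors merged reproducible peaks and deposited raw counts in 240778 windows around peak summits, without normalization or strand. Replicates were counted separately. Whether window starts count from 0 or 1 is not given in the sources used here. Column names were matched to samples by the mouse in the label.

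Windows were assigned to genes with RefSeq positions (GRCm38.p6), with strand for 21436 of 21896 protein-coding genes. Exons were not used. The 4 loci and all lists were chosen with earlier results of these data known.

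Counts were fitted with edgeR 4.0.16 (quasi-likelihood, TMM, at least 10 reads on average over the samples fitted, Benjamini-Hochberg adjustment over all windows, threshold 0.05). The terms were genotype over both days with day as covariate, genotype within each day, day within each genotype, and their interaction. CPM used TMM-scaled library sizes. Named windows were, per locus, the one of smallest p, the most accessible, the one nearest the start site, its neighbours, any past the threshold and those of largest fold change. Other windows described (inside Arhgap17 from 13685 to 13937 bases, at Spata13 starts and beside its most accessible window, inside Arhgef6) were chosen after their values were seen. The labels call mice replicates, and p-values measure the spread between them. Replicate pairs differed beyond counting noise (chi-square per degree of freedom 1.62 to 2.46). Alternatives were DESeq2 1.42.0, other scalings and filters, a replicate block, the mouse name prefix and leaving out each mouse. The code was tested on simulated data. Results of 1 list and 1 similar window are not reported here.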

Additional observations from a re-analysis of the deposited data

Results flagged for a closer look

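In 3 of 48 groups of 4 mice examined, 1 mouse stood apart from the others by Dixon's criterion, where about 2.4 are expected by chance. R26TIR1(F74G) day 3 replicate 3 had 6.26 CPM in the chosen Arhgap17 window, above the 4.88 to 5.07 CPM of the other mice of its group. R26TIR1(F74G) day 3 replicate 1, the shallowest library, had 12.05 CPM in the Ccl1 window 3622 bases upstream of the start, where the others had 7.35 to 7.96 CPM. R26WT day 3 replicate 1 had 2.42 CPM in the Ccl1 window 1487 bases into the gene. The groups of 3 mice on day 7 were not examined.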

How the results depend on the processing

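The count of 5 windows past the threshold for genotype over both days was 3 with total counts as library sizes. It was 3 with the replicate block, 2 with the prefix of the mouse names in the fit and 3 in gene bodies only. At an adjusted p of 0.01 it was 1. By DESeq2 it was 0, but DESeq2 gave an adjusted p to 14 of the windows and to none of the chosen ones. Leaving out 1 mouse gave 1 to 5. Over all windows, edgeR called 13 higher and 14 lower in the main fit, and 21 and 16 with total counts. It called 7 and 7 with the replicate block and 7 and 8 with the prefix. Without 1 mouse it called from 1 and 1 to 20 and 36, and DESeq2 called 155. For genotype on day 7 the count of 0 became 1 among windows averaging 50 reads or more, 1 at an adjusted p of 0.1 and 3 with the replicate block, and 0 to 2 without 1 mouse, the 2 being the overlapping Ccl1 windows without R26WT replicate 1. Over all windows on day 7, edgeR called 7 higher and 4 lower in the main fit, and 24 and 28 with the replicate block. It called 13 and 21 among windows averaging 50 reads or more, and 15 and 12 without R26WT replicate 1. At the 4 loci, the other comparisons stayed at 0 under every alternative run. No direction of a chosen window was reversed. The median of the Fam83f locus ran from -0.27 to -0.02. Replicate numbers did not pair mice (correlations of deviations -0.17 to 0.07), so the block marks only a shared number. Of the chosen windows, that of Spata13 held the fewest reads, with 5 in R26WT day 7 replicate 3. The cause of these changes was not tested.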
